A study of Homo sapiens with 6 samples.

Results

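The poly(ADP-ribose) polymerase (PARP) family genes PARP1, PARP2, PARP4, PARP8, PARP9, PARP10, PARP12, PARP14 and TNKS2, together with DTX3L, were compared between control and PBRM1-silenced BT-549 cells. These 10 genes were taken by their symbols from the 37887 rows of the count table, and all 10 passed the filter on low counts that left 15450 genes for testing. Here, PARP9, DTX3L, PARP14, PARP10 and PARP12 are called the interferon-type genes, and were set against PARP1 and PARP2 (repair-type), TNKS2 (a tankyrase), PARP4 and PARP8.

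PARP enzymes transfer ADP-ribose from NAD to proteins or nucleic acids. PARP1 and PARP2 build poly(ADP-ribose) chains at DNA breaks and are the targets of clinical PARP inhibitors, and the tankyrases mark proteins such as axin for degradation. Many other members add single ADP-ribose units or lack activity of their own, and several of them are induced by interferon (IFN) in many cell types. PARP9 works as a partner of DTX3L, a ubiquitin E3 ligase of the Deltex family.

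BT-549 is an established triple-negative breast cancer (TNBC) cell line. Its RNA was sequenced in 3 libraries labelled control shRNA (shCTL), from cells given 0.1% DMSO, and in 3 libraries labelled shPBRM1, from cells given 500 ng/ml doxycycline (DOX). The series design states that the cells of both groups stably carried the same tet-PBRM1 shRNA vector, which DOX switches on. The titles of the control libraries instead name a control shRNA. In its chromatin assays, the study likewise compared BT-549 cells carrying a control shRNA with cells carrying PBRM1 shRNA. Its methods describe insertion into a tet vector for the MUC1 and control shRNAs, and do not mention it for the PBRM1 shRNA. Which holds for these libraries could not be settled here. Effects of DOX itself, of PBRM1 silencing and of any difference in vector therefore cannot be told apart. The sources used here do not say whether the carriers were a pool or a clone, or how long DOX was given. Of the columns in the count table, 3 name shPBRM1, and the remaining 3 were taken as shCTL because the sample titles leave no other group.

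Total counts were between 36429395 and 65096297 per library, where the floor of 3 counts corresponds to between 0.0471 and 0.0804 CPM (counts scaled to a common library size). PBRM1, the chromatin remodeling gene targeted by the shRNA, fell from 158 ± 2.30 CPM in shCTL to 41.9 ± 1.22 CPM in shPBRM1 cells (SD, n = 3). The mesenchymal-type markers VIM, FN1, SPARC and CDH2 had at least 202 CPM in every library. ESR1, PGR, GATA3 and EPCAM had at most 12 counts in any library, whereas ERBB2 was between 48.6 and 53.1 CPM and the epithelial gene CDH1 had 58 to 271 counts. Of the 7 markers tested, FN1, CDH1 and PTPRC were called lower in shPBRM1, as were 9.7% of all genes tested. The rule for a call is given below. Of the markers of other cell types, PECAM1 and ALB had at most 18 counts in any library and PTPRC had 4 to 44 counts. PTPRC was lower in shPBRM1 (0.132 ± 0.059 CPM) than in shCTL (0.797 ± 0.091 CPM; SD, n = 3), and the part of this difference in the results was not tested. In bulk RNA, fewer cells expressing a gene and less RNA per cell cannot be told apart.

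All 5 interferon-type genes were lower in shPBRM1 cells, by 5.24-fold for PARP12 to 40.9-fold for PARP10. None of the other 5 genes changed by 2-fold. PARP1 and PARP2 were each 1.24-fold higher, PARP4 was 1.13-fold lower, TNKS2 was 1.07-fold lower, and PARP8 did not pass the test. A gene was called here at an adjusted p under 0.05 (quasi-likelihood test of edgeR, Benjamini-Hochberg over the 15450 genes) and a fold change over 2, and was said to pass the test at the adjusted p alone. Of all genes tested, 9.7% were called lower and 2.91% higher. The median log2 fold change was -3.24 for the interferon-type genes, -0.05 for the other 5 genes and -0.01 for all genes tested. In the order of all tested genes from the lowest log2 fold change, PARP10 was number 60, PARP14 was 151 and PARP9 was 224.

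**Figure D1:**
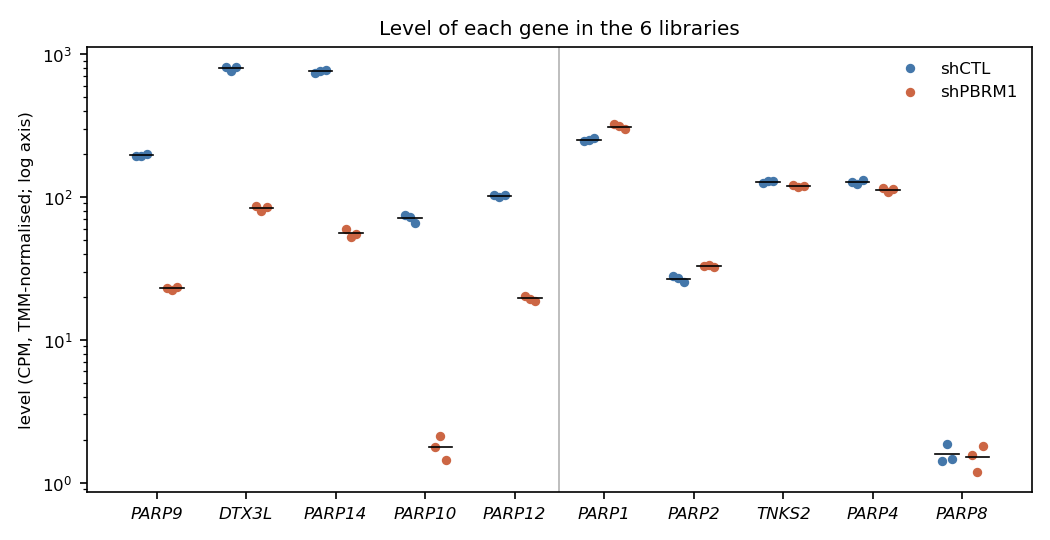
Level of each gene in CPM (TMM-normalised, log axis) in the 3 shCTL (blue) and 3 shPBRM1 (orange) libraries; points are libraries, and black lines are group means. To the left of the grey line, all shPBRM1 libraries of the 5 interferon-type genes lie below all shCTL libraries by over 2-fold, and to the right the groups lie within 1.24-fold of each other.

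PARP9 and DTX3L are neighbors in opposite directions on chromosome 3 (GRCh38, GENCODE v29). PARP9 spans chr3:122527924-122564577 on the minus strand and DTX3L spans chr3:122564238-122575203 on the plus strand. Their outermost annotated starts are 339 bases apart, and 217 exonic bases belong to both genes. PARP14, a mono-ADP-ribosyltransferase with macrodomains that bind ADP-ribose, spans chr3:122680618-122730840 on the plus strand, and its start is 116041 bases from that of PARP9. PARP12, a zinc finger mono-ADP-ribosyltransferase, spans chr7:140023744-140063721 on the minus strand.

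The promoters of these genes are shown because interferon-activated factors bind short sequence elements near gene starts. The windows are those of RefSeq on GRCh38.p14, from 250 bases before to 50 bases after an annotated start, and 8 of the 10 genes had at least 1 window. PARP10 and PARP4 had none. Each window was searched on both strands for GAAANNGAAA, the core of the interferon-stimulated response element (ISRE), which is marked in capitals, in its complement where it lies on the other strand. The PARP9 window covers chr3:122564251-122564550 on the minus strand, the PARP14 window covers chr3:122680589-122680888 on the plus strand and the PARP12 window covers chr7:140062902-140063201 on the minus strand.
PARP9: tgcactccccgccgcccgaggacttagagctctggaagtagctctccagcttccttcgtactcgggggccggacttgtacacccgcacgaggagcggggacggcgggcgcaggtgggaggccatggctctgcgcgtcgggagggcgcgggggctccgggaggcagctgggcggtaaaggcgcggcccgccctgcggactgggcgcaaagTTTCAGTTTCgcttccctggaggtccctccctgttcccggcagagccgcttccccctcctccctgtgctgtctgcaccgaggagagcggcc
PARP14: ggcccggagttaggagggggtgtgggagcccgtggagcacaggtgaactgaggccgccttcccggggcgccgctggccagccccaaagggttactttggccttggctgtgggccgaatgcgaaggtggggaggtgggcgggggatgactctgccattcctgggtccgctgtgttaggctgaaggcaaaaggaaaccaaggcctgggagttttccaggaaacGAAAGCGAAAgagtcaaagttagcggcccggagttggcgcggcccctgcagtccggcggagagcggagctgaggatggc
PARP12: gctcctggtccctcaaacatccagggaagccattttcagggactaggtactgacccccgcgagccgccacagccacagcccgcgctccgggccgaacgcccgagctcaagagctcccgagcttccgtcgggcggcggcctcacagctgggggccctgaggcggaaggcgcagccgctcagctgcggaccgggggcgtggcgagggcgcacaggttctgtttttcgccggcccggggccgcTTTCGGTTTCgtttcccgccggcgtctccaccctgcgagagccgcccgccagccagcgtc

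The single match in the PARP9 window, at chr3:122564332-122564341, is also the single match in the window of DTX3L (chr3:122564088-122564387, plus strand), since the windows overlap there. It begins at position -41 from the PARP9 start and at position -6 from the DTX3L start. The matches of PARP14 and PARP12 begin at positions -29 and -10. Read in the GAAA direction with 8 bases on each side, the 3 sites can be set side by side.
PARP9 and DTX3L: agggaagcGAAACTGAAActttgcgc
PARP14: caggaaacGAAAGCGAAAgagtcaaa
PARP12: cgggaaacGAAACCGAAAgcggcccc

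Thus all 4 interferon-type genes with a window had the ISRE core in at least 1 window, at 3 separate sites, and PARP1, PARP2, TNKS2 and PARP8 had none. Another PARP9 window (chr3:122564735-122565034), for a start farther upstream, had no match. Among all 35116 windows 1255 (3.57%) held the ISRE core, and among all 27305 genes with a window 1195 (4.38%) did. The core of the gamma-activated site (GAS), TTCNNNGAA, which reads the same on both strands, was found in PARP14 at position -40, next to its ISRE core with no base in common, and in PARP2 at position -154. It was held by 7.66% of all windows and 9.38% of all genes. A match describes the letters of a window and does not show that a factor binds there.

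**Figure D2:**
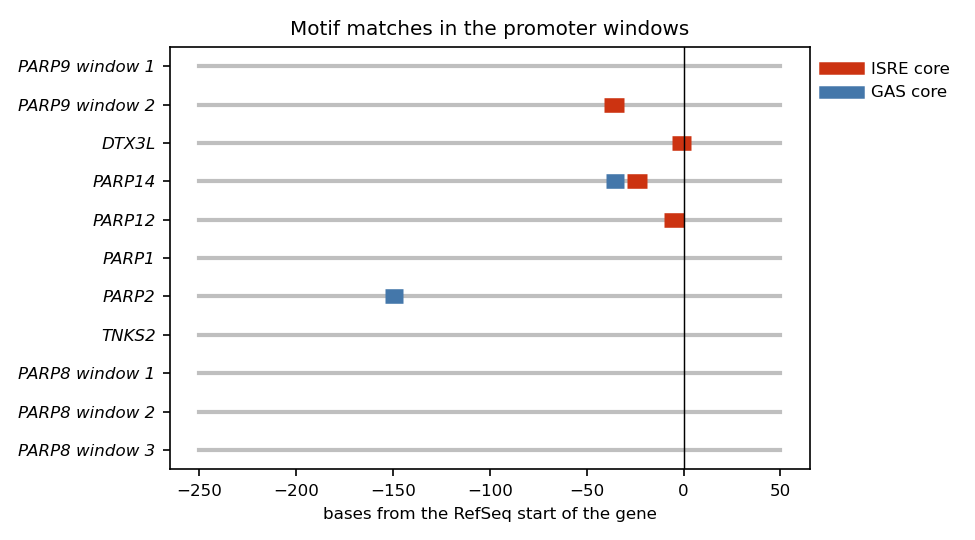
Matches to the ISRE core (red) and the GAS core (blue) in the promoter windows of the 8 genes that have them, by distance in bases from the RefSeq start; each grey bar is a window of 250 bases before and 50 bases after it. The 4 genes with an ISRE core (PARP9, DTX3L, PARP14 and PARP12) have matches that begin between positions -41 and -6, and the other 4 genes have none.

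The shCTL libraries had 195, 194 and 199 CPM of PARP9, and the shPBRM1 libraries had 23.2, 22.3 and 23.4 CPM. All shPBRM1 libraries lay below all shCTL libraries, as they did for 35% of all genes tested. The log2 fold change was -3.09 (SE 0.024, adjusted p = 1.95e-54 from edgeR), an 8.53-fold decrease. DTX3L had 809, 765 and 807 CPM in shCTL and 86.9, 79.9 and 85.6 CPM in shPBRM1 libraries. The groups did not overlap, and the log2 fold change of -3.24 (SE 0.045, adjusted p = 3.79e-54 from edgeR) corresponds to 9.43-fold less DTX3L.

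The partners were also compared directly. Within a library, the log2 ratio of PARP9 to DTX3L counts was -2.02 ± 0.038 in shCTL and -1.87 ± 0.032 in shPBRM1 (SD, n = 3). The difference of 0.14 had p = 0.1 in an exact two-sided permutation test, the smallest p that 3 libraries against 3 allow (adjusted p = 0.15 over the 3 ratios tested). The 3 values of each group did not overlap. Counting by strand was not given in the sources used here. Reads from the exonic bases that PARP9 and DTX3L share may therefore have been counted for either gene, for both or for neither.

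PARP14 was expressed at 743, 757 and 778 CPM in shCTL and at 59.4, 52.6 and 54.9 CPM in shPBRM1 libraries. It fell to 7.33% of its control level, with a log2 fold change of -3.77 (SE 0.055, adjusted p = 4.75e-54 from edgeR), the largest decrease of the 3 chromosome 3 members. The log2 ratio of PARP14 to PARP9 counts was 1.95 ± 0.019 in shCTL and 1.28 ± 0.070 in shPBRM1 (SD, n = 3). This difference of -0.68, with no overlap between the groups, also had the smallest possible p of 0.1 in the exact permutation test (adjusted p = 0.15).

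PARP10, a mono-ADP-ribosyltransferase, spans chr8:143977153-144012772 on the minus strand. It was at 74.4, 72.7 and 66.0 CPM in shCTL libraries and at 1.77, 2.13 and 1.44 CPM in shPBRM1 libraries. In raw counts, these were 2777, 3534 and 3330 against 106, 83 and 92, which is far above the floor of 3 counts in every library. Its log2 fold change of -5.35 (SE 0.17, adjusted p = 5.99e-41 from edgeR) was the largest of the 10 genes, and 0.382% of all genes tested had a lower value. PARP10 shares 324 exonic bases with GRINA and 197 with SPATC1, both on the other strand, so that some of the remaining reads may belong to these genes. GRINA, named here for this overlap, had 382 ± 35.6 CPM in shCTL and 252 ± 36.3 CPM in shPBRM1 (SD, n = 3).

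PARP12 had the smallest decrease of the interferon-type genes. Its level was 103, 100 and 103 CPM in shCTL libraries and 20.2, 19.3 and 18.8 CPM in shPBRM1 libraries. All shPBRM1 libraries lay below all shCTL libraries, as for 35% of all genes tested. The log2 fold change was -2.39 (SE 0.034, adjusted p = 3.52e-45 from edgeR), which left 19.1% of the control level.

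Among the repair-type genes, PARP1 was the most abundant. It had 246, 249 and 259 CPM in shCTL libraries and 322, 314 and 298 CPM in shPBRM1 libraries, with every shPBRM1 library above every shCTL library. Its log2 fold change was 0.31 (SE 0.040, adjusted p = 9.14e-11 from edgeR). PARP2 had 27.9, 26.99 and 25.3 CPM in shCTL and 33.0, 33.6 and 32.5 CPM in shPBRM1, again without overlap, and also had a log2 fold change of 0.31 (SE 0.043, adjusted p = 4.23e-06 from edgeR). Of all genes tested, 31.7% passed the test in the higher direction and 33.3% had all shPBRM1 libraries above all shCTL libraries, so that neither result sets PARP1 or PARP2 apart from other genes. The log2 ratio of PARP1 to PARP2 counts was 3.23 ± 0.11 in shCTL and 3.24 ± 0.045 in shPBRM1 (SD, n = 3), with overlapping values and p = 1 in the exact permutation test (adjusted p = 1).

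TNKS2, tankyrase 2, was measured at 125, 128 and 130 CPM in shCTL and at 121, 118 and 120 CPM in shPBRM1 libraries. These groups did not overlap, but the log2 fold change was only -0.10 (SE 0.019, adjusted p = 0.00982 from edgeR), and it was -0.15 when counts were scaled by library size alone. PARP4, the PARP of the vault particle, had 126, 124 and 131 CPM in shCTL and 115, 109 and 113 CPM in shPBRM1 libraries, without overlap. Its log2 fold change was -0.18 (SE 0.033, adjusted p = 1.65e-05 from edgeR). Of all genes tested, 33.5% passed the test in the lower direction and 35% had all shPBRM1 libraries below all shCTL libraries. These decreases, too, therefore do not set the genes apart.

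PARP8, a little-studied mono-ADP-ribosyltransferase, was the least abundant, with 53, 90 and 74 counts in shCTL and 93, 46 and 114 counts in shPBRM1 libraries. In CPM these were 1.42, 1.85 and 1.47 against 1.55, 1.18 and 1.79, and the groups overlapped. The log2 fold change was -0.05 (SE 0.21, adjusted p = 0.84 from edgeR), with a 95% interval from -0.63 to 0.52 that includes the values of PARP1 and PARP4. The value turned positive when shCTL replicate 2 (0.08) or shPBRM1 replicate 2 (0.08) was left out.

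To set the genes side by side, levels were divided by the length of each gene's exons in kilobases (kb). In shCTL cells DTX3L was highest with 135 ± 4.23 CPM per kb (SD, n = 3), followed by PARP14 with 72.3 ± 1.67, PARP1 with 35.0 ± 0.95 and PARP9 with 21.9 ± 0.30 CPM per kb. PARP4 (20.9 ± 0.61 CPM per kb) and TNKS2 (20.8 ± 0.40 CPM per kb) came next, and were the only neighbors in this order whose libraries overlapped. PARP12, PARP10 and PARP2 had 16.2, 11.8 and 6.52 CPM per kb, and PARP8 had 0.157 CPM per kb.

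In shPBRM1 cells PARP1 was highest with 43.4 ± 1.72 CPM per kb, and TNKS2 (19.4 ± 0.23) and PARP4 (18.5 ± 0.50) followed. DTX3L came next with 14.3 ± 0.63 CPM per kb, and PARP2, with 8.07 ± 0.13, now stood above PARP14, with 5.30 ± 0.33 CPM per kb (SD, n = 3). PARP12, PARP9, PARP10 and PARP8 had 3.10, 2.57, 0.295 and 0.150 CPM per kb, and no neighbors in this order overlapped. Of the summed level of all 10 genes per kb, the interferon-type genes made up 75.9%, 75.3% and 75.4% in shCTL against 22.5%, 21.6% and 22.6% in shPBRM1 cells. The other 5 genes summed to between 82.3 and 85.1 CPM per kb in shCTL and between 87.6 and 91.6 CPM per kb in shPBRM1 libraries.

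**Figure D3:**
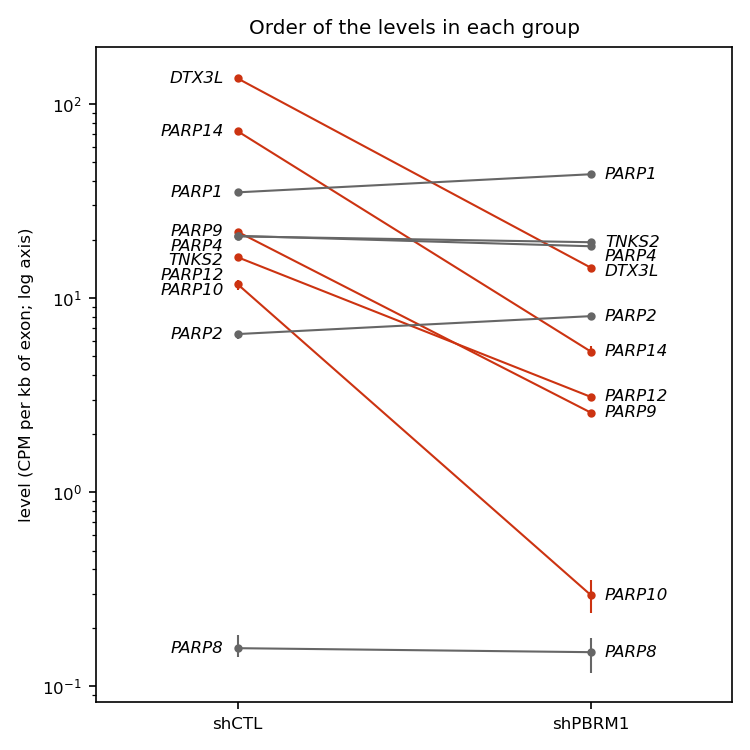
Mean level of each gene per kb of exon (CPM per kb, log axis) in shCTL and shPBRM1 cells; bars span the 3 libraries of a group, red marks the 5 interferon-type genes and grey the other 5. DTX3L, highest in shCTL at 135 CPM per kb, falls below PARP1, TNKS2 and PARP4 in shPBRM1, and PARP10 falls from 11.8 to 0.295 CPM per kb.

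These levels depend on the gene models. With the longest transcript in place of all exons, PARP1 rises from 35.0 to 63.4 CPM per kb in shCTL, PARP12 (26.9) passes PARP4 (23.2) and TNKS2 (20.8), and DTX3L and TNKS2 keep their values. PARP2 moves most in proportion, from 6.52 to 13.5 CPM per kb in shCTL. The order in shPBRM1 cells also turns, since PARP4 (20.5 CPM per kb) then passes TNKS2 (19.4), and PARP2 (16.7) passes DTX3L (14.3).

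On chromosome 3, none of the tested genes nearest to PARP9, DTX3L and PARP14 was called. Of all genes tested, 9.7% were called lower and 2.91% higher, so the lack of calls does not set these neighbors apart. PARP15, another family member that lies between DTX3L and PARP14, had at most 1 count in any library and was not tested. On the PARP9 side, KPNA1, which encodes a nuclear import receptor, was higher in shPBRM1 with a log2 fold change of 0.39 (SE 0.027, adjusted p = 1.57e-14 from edgeR). WDR5B followed with -0.57 (SE 0.11) and FAM162A with 0.13 (SE 0.076). Beyond PARP14, the log2 fold changes were -0.71 (SE 0.13) for HSPBAP1, 0.16 (SE 0.019) for SLC49A4 and 0.59 (SE 0.070) for LINC02035. All 6 passed the test, 4 of them in the higher and 2 in the lower direction. Passing was common across all genes tested, with 31.7% higher and 33.5% lower.

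**Figure D4:**
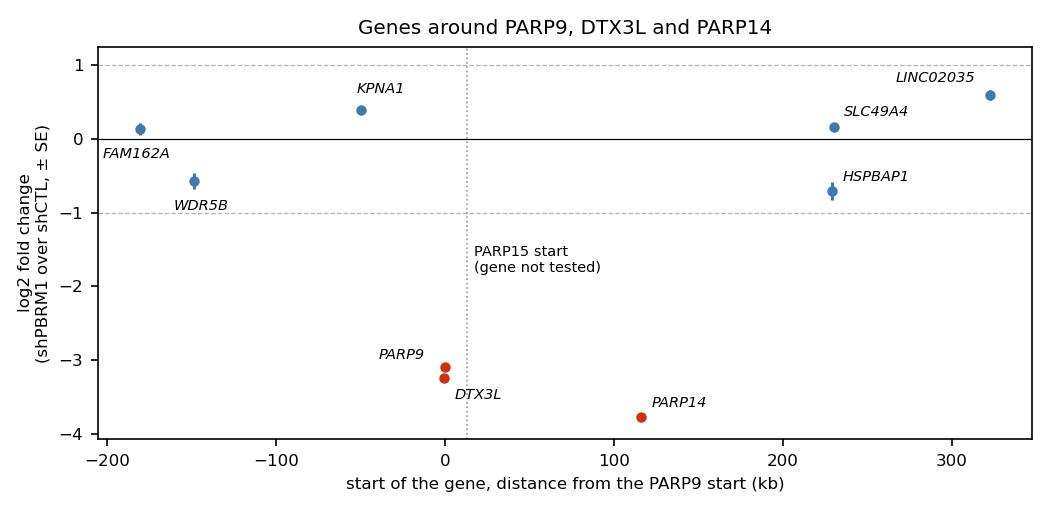
Log2 fold change (shPBRM1 over shCTL, with SE) of the genes around PARP9, DTX3L and PARP14, by the distance of each gene's start from the PARP9 start in kb; the dashed lines mark a 2-fold change and the dotted line the start of PARP15, which was not tested. The 3 members (red) lie at -3.09 to -3.77, and the 6 nearest tested neighbors (blue) between -0.71 and 0.59.

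Over the 10 genes, the 3 nearest tested genes on each side came to 48 genes, of which 5 were called lower and 0 higher. Their median log2 fold change was -0.08. At the adjusted p alone, 21 were lower and 15 were higher. Among all genes tested, 9.7% were called lower and 2.91% higher, so the calls do not set the neighbors apart. At the adjusted p alone, the shares over all genes were 33.5% lower and 31.7% higher. ITPKB, next to PARP1, fell most (log2 fold change -3.77, SE 0.30, adjusted p = 1.15e-24 from edgeR), although PARP1 itself was higher. The other 4, SMPD5 and EPPK1 near PARP10, FGFBP3 near TNKS2 and TNFRSF19 near PARP4, had means under 2 CPM in both groups. The calls of SMPD5, EPPK1 and FGFBP3 were lost with DESeq2 (adjusted p = 0.0574, 0.141 and 0.0884), and that of EPPK1 also with the replicate block (adjusted p = 0.0505 from edgeR). SMPD5 also lost its call without shCTL replicate 1 or shPBRM1 replicate 3, EPPK1 without any library except shCTL replicate 1 and shPBRM1 replicate 1, and FGFBP3 without shCTL replicate 2, shPBRM1 replicate 1 or shPBRM1 replicate 3. In the other direction, IPO7P2, near PARP4, was called higher without shCTL replicate 3 (log2 fold change 1.15, adjusted p = 0.0112 from edgeR). ACBD3, near PARP1, had the smallest adjusted p of the 48 genes with a log2 fold change of -0.88 (SE 0.026), and PABPC3, near PARP4, had the largest increase with 0.90 (SE 0.087).

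Of the 8 other PARP family genes, 6 were tested, 3 were called lower and 0 higher, and the median log2 fold change was -0.79. Across all genes tested, 9.7% were called lower and 2.91% higher. PARP3, an enzyme of DNA break repair, fell from 7.04 ± 1.20 to 2.76 ± 0.17 CPM (SD, n = 3), with a log2 fold change of -1.36. PARP6 had a log2 fold change of -1.29 (SE 0.023, adjusted p = 3.12e-25 from edgeR). ZC3HAV1, the zinc finger antiviral protein that binds viral RNA and has no ADP-ribosyl transferase activity, fell from 189 ± 7.52 to 82.3 ± 1.01 CPM (log2 fold change -1.20, adjusted p = 1.94e-35 from edgeR). In the opposite direction, TIPARP, a mono-ADP-ribosyltransferase gene induced by the aryl hydrocarbon receptor, rose from 202 ± 1.78 to 282 ± 2.88 CPM (log2 fold change 0.48). TNKS and PARP16 passed the test in the lower direction with log2 fold changes of -0.22 and -0.37. PARP11 had at most 2 counts in any library. Thus the family as a whole ran from -5.35 in PARP10 to 0.48 in TIPARP.

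None of the 3 tested Deltex genes other than DTX3L was called. Across all genes tested, 9.7% were called lower and 2.91% higher, so the lack of calls does not set them apart. DTX2 was higher (log2 fold change 0.55, SE 0.065, adjusted p = 2.85e-09 from edgeR), and DTX3 (-0.04, SE 0.078) and DTX4 (0.09, SE 0.23) did not pass the test. Their median log2 fold change was 0.09.

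Of the STAT and IRF genes whose proteins bind interferon response elements, only 3 are reported here, which is not the whole class. All 3 were called lower, as were 9.7% of all genes tested, with a median log2 fold change of -1.88. STAT2, which carries type I IFN signals, fell from 130 ± 4.44 to 25.4 ± 1.11 CPM (SD, n = 3). Its log2 fold change of -2.36 (SE 0.046, adjusted p = 1.28e-46 from edgeR) was close to the -2.39 of PARP12. IRF9, which joins STAT2 in the ISRE-binding complex, had -1.88 (SE 0.14), and IRF1 had -1.60 (SE 0.039). The study reported that IFN-responsive genes, IRF1 among them, were lower on PBRM1 silencing in these cells. The decreases of STAT2, IRF9, IRF1 and the interferon-type genes are therefore not independent evidence.

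Of the 10 genes of NAD supply, 8 were tested, 3 were called lower and 0 higher, with a median log2 fold change of -0.53. The shares called over all genes tested were 9.7% lower and 2.91% higher. NAMPT, the rate-limiting enzyme of NAD salvage from nicotinamide, fell from 1729 ± 38.4 to 656 ± 15.2 CPM (SD, n = 3), or by -1.40 on the log2 scale (SE 0.027, adjusted p = 1.68e-41 from edgeR). NMNAT2, which makes NAD in the cytosol, had -1.25 (SE 0.10). QPRT, of the pathway from tryptophan, had -2.11 (SE 0.15) at a low level, 3.35 ± 0.51 against 0.787 ± 0.078 CPM. SLC25A51, which carries NAD into mitochondria, was higher (0.53, SE 0.055). NAPRT and NADSYN1 also passed the test in the lower direction and NMNAT1 in the higher one. Of the genes with few counts, NMRK1 was called lower only without shCTL replicate 1 (adjusted p = 0.0333 from edgeR), and NMNAT3 only without shCTL replicate 2 or shPBRM1 replicate 1 (adjusted p = 0.0404 and 0.0417).

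Among the 8 genes that remove ADP-ribose, 7 were tested, none was called, 4 passed the test in the lower and 0 in the higher direction, and the median log2 fold change was -0.28. The shares that passed over all genes tested were 33.5% lower and 31.7% higher, and the shares called were 9.7% and 2.91%. MACROD1, a hydrolase of mono-ADP-ribose, was lower by the largest amount (-0.78, SE 0.087, adjusted p = 5.96e-12 from edgeR). PARG, which cleaves poly(ADP-ribose) chains, was measured at 44.0 ± 0.81 CPM in control and 42.3 ± 0.82 CPM in silenced cells (SD, n = 3), and did not pass the test (adjusted p = 0.311 from edgeR). ADPRH, which fell under the filter on low counts, was called lower without that filter (log2 fold change -1.49, adjusted p = 0.0148 from edgeR) and when any single library except shCTL replicate 2 or 3 was left out. MACROD2 had the highest value (0.49, SE 0.23, adjusted p = 0.0565 from edgeR).

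The 9 repair partners of PARP1 and PARP2 reported here were all tested. None was called, 7 passed the test in the higher direction and 0 in the lower direction, and the median log2 fold change was 0.27. Among all genes tested, 31.7% passed in the higher and 33.5% in the lower direction, and 2.91% and 9.7% were called. TDP1, which removes topoisomerase adducts from DNA ends, had 0.76 (SE 0.051, adjusted p = 3.08e-16 from edgeR). FEN1, the flap endonuclease, had 0.52 (SE 0.050, adjusted p = 8.46e-17 from edgeR). HPF1, the cofactor that directs PARP1 and PARP2 to serine residues, rose from 20.5 ± 1.17 to 26.7 ± 2.37 CPM (SD, n = 3), or by 0.38 on the log2 scale beside 0.31 for both enzymes. XRCC1, POLB, APTX and APLF also passed the test, with log2 fold changes from 0.19 to 0.41, and LIG3 and CHD1L did not.

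Of the 6 tankyrase partners, none was called and 3 passed the test in the lower direction, AXIN1 with the largest log2 fold change (-0.36, SE 0.078, adjusted p = 2.44e-07 from edgeR). AXIN2 had the highest value (0.20, SE 0.14, adjusted p = 0.0709 from edgeR). The median was -0.11, and 33.5% of all genes tested passed in the lower direction. The shares called over all genes were 9.7% lower and 2.91% higher. Both other vault genes passed the test in the lower direction without being called. TEP1 had a log2 fold change of -0.92 (SE 0.055) and MVP, the major vault protein, had -0.24 (SE 0.036), beside -0.18 in PARP4.

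**Figure D5:**
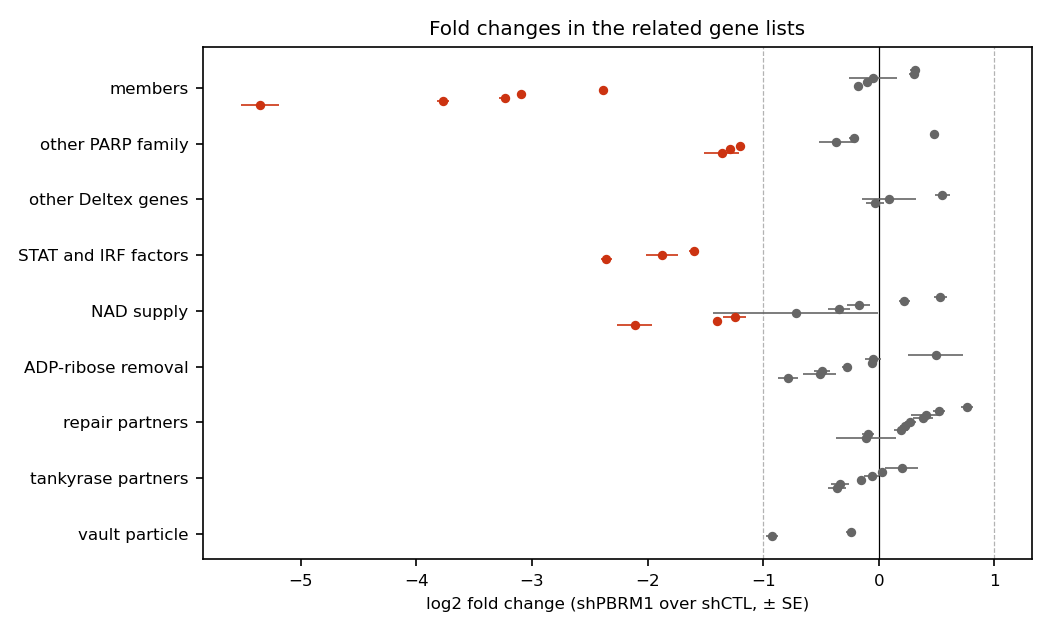
Log2 fold change (shPBRM1 over shCTL, with SE) of the 10 genes (top row, members) and of the tested genes in 8 related lists, without the chromosomal neighbors; points are genes, red where called and grey where not, and dashed lines mark a 2-fold change. Among the genes plotted, those called belong to the interferon-type members, the other PARP family genes, the STAT and IRF factors and the genes of NAD supply, and all of them lie on the lower side.

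Lastly, the genes most like PARP9 were found by the root mean square difference of log2 CPM, centred on the shCTL mean, over the 6 libraries and 15449 other genes. The 5 nearest were FNDC1 (difference 0.037), FNDC1-IT1 (0.067), ANKRD22 (0.068), UBE2L6 (0.070) and IFI35 (0.082 on the log2 scale). FNDC1-IT1 and ANKRD22 had 0 counts in all shPBRM1 libraries and under 0.4 CPM in shCTL, so their likeness is set by the 2 counts added to each count. FNDC1, the nearest of all, fell from 46.1 ± 1.19 CPM in shCTL to 5.41 ± 0.31 CPM in shPBRM1 (SD, n = 3). UBE2L6, the conjugating enzyme for the ubiquitin-like protein ISG15, fell from 160 ± 0.26 to 17.6 ± 1.02 CPM (SD, n = 3). IFI35, an IFN-induced gene, fell from 58.5 ± 3.03 to 7.18 ± 0.54 CPM. DTX3L was number 8 in this order, PARP14 was 166 and PARP12 was 173. PARP10 was number 1634, since it fell further than PARP9.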

How the data were processed

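Total RNA of BT-549 cells cultured in triplicate was made into poly(A)-selected stranded libraries. Per the submitters' processing notes, CASAVA 1.8.2, STAR 2.7.9a, featureCounts, DESeq2 1.24.0 and the build GRCh38.p7 were used. The annotation and the strand setting were not given in the sources used here. For 6 libraries, raw counts of reads on gene symbols were deposited, with no normalization by the authors. Of 37887 rows, 14 carry dates in place of symbols and were kept but not named. Groups and replicate numbers come from the sample titles.

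The test was that of edgeR 4.0.16, run in R 4.3.3 (filterByExpr, TMM factors, robust quasi-likelihood F-test, Benjamini-Hochberg adjustment over 15450 genes). CPM values are TMM-normalised, except those of the line's markers given per library, which use library size. SEs and the 95% intervals (Student distribution, 4 degrees of freedom) come from the spread of log2 CPM with a prior count of 2. Ratios were compared by exact permutation tests (scipy). Positions and lengths are those of GENCODE v29, matched by symbol or gene ID (99.7% of tested genes), and promoter windows are those of RefSeq. Intervals and the floor cover counting error or the spread between these libraries only. Libraries of a group differed by more than sampling noise (chi-square per degree of freedom 4.92 to 24.9), but the p-values measure only the spread between them, which may be partly technical. Same-numbered libraries of both groups moved together: the correlations of their deviations from the group means, across 5622 genes, which are not independent, were 0.734, 0.593 and 0.419 for numbers 1, 2 and 3. Pairs with different numbers had -0.671 to 0.464, the highest being shCTL replicate 2 with shPBRM1 replicate 3, above the same-numbered pair 3. The study's methods state no covariate, so the replicate block was fitted as an alternative.

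The genes and lists were chosen with earlier results of these data known. Named are all 10 genes, PBRM1, the neighbors of PARP9, DTX3L and PARP14, the 5 genes nearest to PARP9 and, in each list, the called genes, those of largest change in each direction and of smallest adjusted p. Other genes of the lists and GRINA were named after their values were seen. Alternatives were DESeq2 1.42.0, RLE factors, library size, other filters and thresholds, the replicate block, each library left out and, added after seeing the data, edgeR without its robust option. The fit was tested on simulated data. Results for some genes of the lists are not reported here.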

Additional observations from a re-analysis of the deposited data

How the results depend on the processing

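The 5 interferon-type genes were called lower under every alternative run, and the replicate block, in which all values kept their side of the threshold, changed no call of the 10 genes; for the ratios its sign-flip p was 0.25 for PARP9 to DTX3L, 0.25 for PARP14 to PARP9 and 1 for PARP1 to PARP2 (exact tests). The fits with and without the block called 1957 and 1948 genes, 1922 of them in both. Of 130 alternative log2 fold changes of the 10 genes, 128 kept their direction and side of the threshold. The exceptions were PARP8 values: without 1 library they ran from -0.19 to 0.08, and were above 0 without shCTL replicate 2 (0.0796) or shPBRM1 replicate 2 (0.0811). The difference in the log2 ratio of PARP1 to PARP2 ran from -0.046 to 0.062 without 1 library. Without the robust option, chosen after seeing the data, the adjusted p of the interferon-type genes from edgeR rose to between 2.44e-26 and 7.40e-23. With no fold change minimum, 4 of the other 5 genes passed, 68 genes of the lists did in place of 14, and 5169 genes were lower and 4891 higher, in place of 1499 and 449. A mean of at least 50 counts left 939 lower and 266 higher genes, and glmTreat against a 2-fold change 919 and 174. With the longest transcript, 16 of 20 levels per kb moved by over 1 SD. Depth limits PARP8, with 46 to 114 counts, and the 83 to 106 counts of PARP10 in shPBRM1 libraries.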
